A study of Mus musculus with 12 samples.

Results

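Aminoacyl-tRNA synthetases are the enzymes that load each amino acid onto its tRNA, and the RNA of this enzyme family was followed in mouse embryonic stem cells that lost Thap11, the gene of the zinc finger protein Ronin. The family was taken as 36 gene symbols of the array annotation, 1 probe set standing for each gene. Of these, 35 were measured, among 18194 genes tested in all, and 19 of the 35 encode cytosolic enzymes and 16 mitochondrial ones. Dars, the cytosolic aspartate enzyme, had no probe set with a single gene symbol and has no value here.

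The knockout cells were CreERT2; Ronin flox/flox cells given 0.25 uM tamoxifen and collected on day 1.5, day 3 and day 6. The control cells were Ronin flox/flox cells without CreERT2, given the same tamoxifen for the same times. Each of the 6 groups had 2 arrays, 12 Affymetrix arrays in all. Cells were seeded at 100000 per 10 cm2, and cultures were split on day 4, so the day 6 samples alone came after a split. Because the knockout line alone carried CreERT2, Thap11 loss cannot be told apart from what CreERT2 does by itself or from other differences between the 2 lines. Nothing in the labels says that arrays of a group were separate cultures, so p-values here reflect array-to-array spread only, which may be technical.

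A synthetase activates its amino acid with ATP and transfers it to the matching tRNA, which then carries it to the ribosome. Mammalian cells use one set of nuclear-encoded enzymes for translation in the cytosol and a largely separate set for translation in mitochondria, whose gene names mostly end in 2; Gars and Kars serve both compartments. Several cytosolic enzymes sit in a multi-synthetase complex with scaffold proteins. When amino acids run short, uncharged tRNA activates the kinase GCN2, and the transcription factor ATF4 then induces many genes of amino acid supply, cytosolic synthetases among them.

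Thap11 itself was lower in knockout cells on every day. It had intensities of 327.4 and 354.2 in knockout cells on day 1.5, against 1262 and 1181 in control cells. On day 3 it had 110.2 and 92.7 in knockout cells and 1279 and 1290 in control cells, and on day 6 it had 50.6 and 51.5 in knockout cells and 1305 and 1382 in control cells. Its log2 fold changes were -1.84, -3.67 and -4.72 (limma adjusted p = 1.22e-05, 1.36e-07 and 1.41e-08). The summed intensity of 10 embryonic stem cell markers lay between 76579.5 and 80123 on all 12 arrays. The sum of 10 fibroblast markers on day 6 was 351.0 and 344.4 in knockout cells and 455.1 and 524.5 in control cells, and that of 10 extraembryonic endoderm markers was 3802 and 3773 in knockout cells and 3777 and 3871 in control cells. On day 1.5 the endoderm sum was 2280 and 2335 in knockout cells and 3632 and 3552 in control cells, and on day 3 it was 1349 and 1402 in knockout cells and 1318 and 1412 in control cells. By the limma test on day 6, 5 of the 10 endoderm markers were lower (Gata6, Gata4, Sox17, Dab2 and Amn) and Foxa2 was higher, with a median log2 fold change of -0.35. On day 6, 3 of 10 fibroblast markers were lower and 0 higher, and 2 of 10 stem cell markers were lower and 1 higher. Of all genes, 15.3% were lower and 17.2% higher on day 6, so the stem cell counts were near those shares. Intensities of all probe sets ran from 5.51 upward, so a value above 0 does not show that a marker was expressed. The 10 fibroblast markers together reached at most 524.5 on an array, where the median probe set stood at 42.4 to 44.7. The part of these markers in the results below was not tested.

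The promoters of the family were read for 2 short sequences, because one has been associated with Ronin and the other is the element through which ATF4 acts. Windows of 250 bases before and 50 after the start site, from RefSeq (build GRCm38.p6), were found for 27 of the members. The Ronin-associated motif, ACTACA then 2 bases of any kind then TCCC, on either strand, was in 0 of 13 cytosolic and 0 of 14 mitochondrial members, against 2.08% of all 27025 genes with a window. It was in Rpp30, a subunit of the RNase P that trims tRNA precursors, and in Shmt2, a mitochondrial enzyme of serine and glycine metabolism, both described below, and in Sesn2, a stress-induced leucine sensor. Sesn2 had 672.7 and 673.0 in knockout cells on day 6 and 609.8 and 627.8 in control cells, at 0.12, which did not pass. The amino acid response element, TGATGNAA on either strand, was in 5 of 13 cytosolic members (38.5%) and 0 of 14 mitochondrial members, against 4.51% of all genes with a window. The 5 were Aars, Gars, Iars, Tars and Yars; in Iars and Yars the match lay after the start site. In the stretches below, each 5′ to 3′ on the strand of its gene, capitals mark the match, with TTTCATCA and TTGCATCA being the element read on the opposite strand. A match is a description of these letters and not a binding site.
Aars, chr8:111033705-111033762 (+): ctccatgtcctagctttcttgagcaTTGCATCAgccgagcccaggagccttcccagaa
Gars, chr6:55037946-55038000 (+): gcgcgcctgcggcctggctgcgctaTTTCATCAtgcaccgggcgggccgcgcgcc
Tars, chr15:11399659-11399698 (-): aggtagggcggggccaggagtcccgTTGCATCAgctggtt
Rpp30, chr19:36083605-36083666 (+): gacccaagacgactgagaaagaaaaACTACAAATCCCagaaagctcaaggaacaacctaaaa
Shmt2, chr10:127522470-127522531 (-): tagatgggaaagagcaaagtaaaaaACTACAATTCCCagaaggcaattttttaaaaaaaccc

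On day 6, 18 of the 35 synthetases were lower in knockout cells and 2 were higher, by limma with an adjusted p under 0.05 over all genes; among all 18194 genes, 15.3% were lower and 17.2% higher, 32.5% in either direction. Without the dimmest 40% of genes the background was 26.0% lower and 28.2% higher, and 18 synthetases were lower. Mars2, among the 18 lower over all genes, is too dim for that set, so the members are not the same 18. Of the cytosolic enzymes 13 of 19 were lower and 1, Aars, was higher, while 5 of 16 mitochondrial enzymes were lower and 1, Ears2, was higher. The median log2 fold change, knockout over control, was -0.16 over the family, -0.20 over the cytosolic enzymes and -0.06 over the mitochondrial ones, against -0.0013 over all genes. Among cytosolic enzymes the 9 of class I, one of the 2 unrelated catalytic folds, had 5 lower, and the 9 of class II had 7 lower and 1 higher. Leaving out any 1 of the 4 arrays of day 6 reduced the 18 to 9 to 12, 12 without control replicate 1 and 9 without each of the other arrays. Of all genes, 11.4% were then lower without control replicate 1, 11.6% without control replicate 2 and 11.0% without either knockout array, and 12.8% to 13.3% were higher (13.0% and 13.2% without control replicate 1 and knockout replicate 2). In bulk samples, fewer cells of a type and less RNA per cell cannot be told apart.

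**Figure D1:**
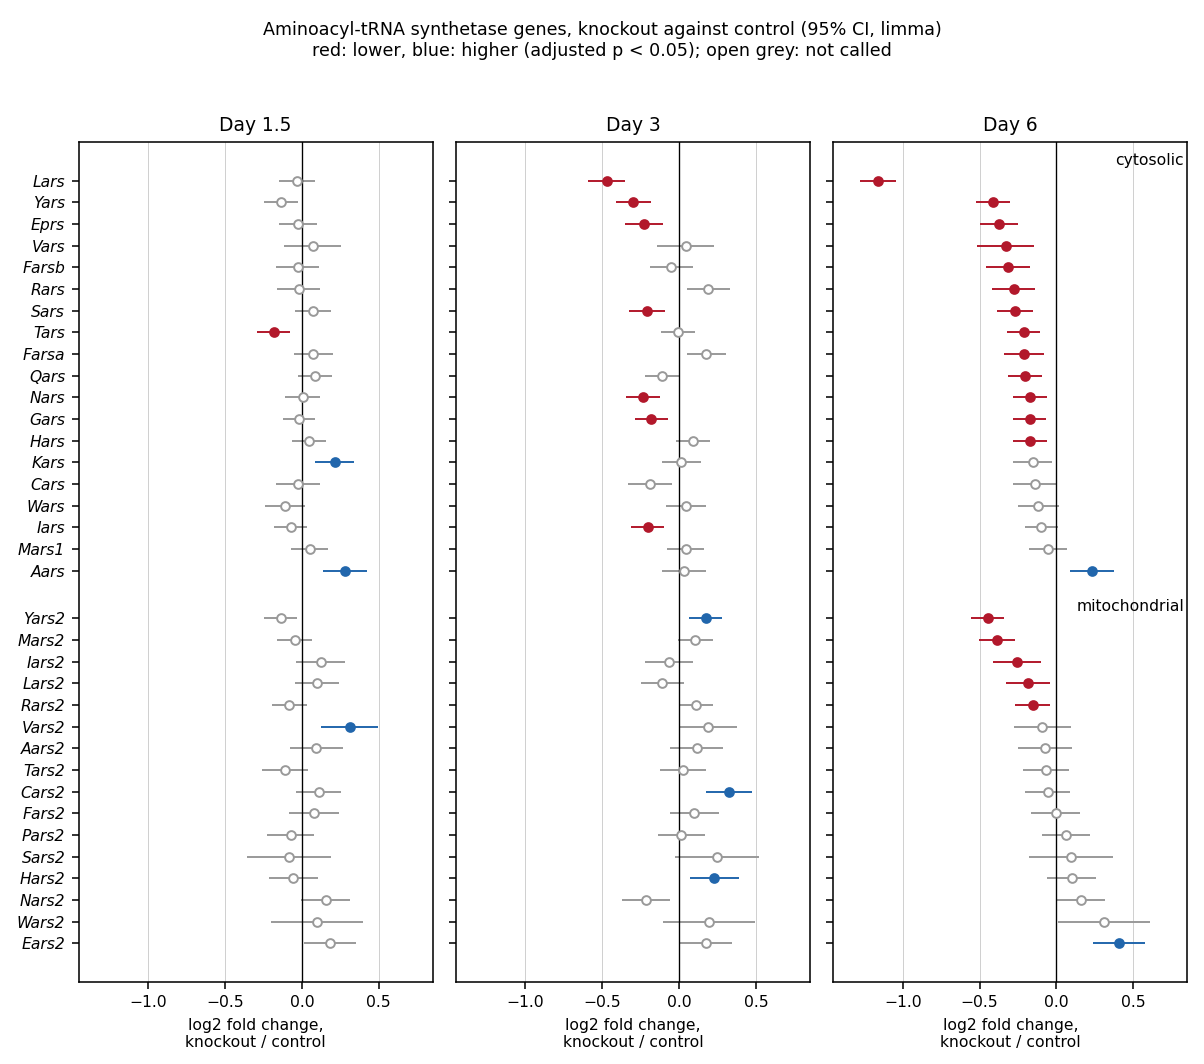
Log2 fold change, knockout over control, of each synthetase on days 1.5, 3 and 6, with bars for the 95% confidence interval of the limma fit (2 arrays a group), cytosolic enzymes above and mitochondrial ones below; filled points passed (red lower, blue higher). Lars reaches -1.16 on day 6, and 18 members are called lower on that day, against 7 on day 3 and 1 on day 1.5.

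Lars, the cytosolic leucine enzyme and also a leucine sensor of the mTORC1 pathway, was the member with the largest change, and the only one past 0.5 on the log2 scale. It had intensities of 4016 and 4017 in knockout cells on day 1.5, against 4193 and 4018 in control cells. On day 3 it had 3028 and 3076 in knockout cells, against 4296 and 4173 in control cells, and on day 6 2178 and 2141 in knockout cells, against 4976 and 4676 in control cells. The groups were close together on day 1.5, where the log2 fold change was -0.03 ± 0.052 (SE), and did not overlap on days 3 and 6. The log2 fold changes were -0.47 on day 3 (adjusted p = 0.000237) and -1.16 ± 0.052 on day 6 (adjusted p = 6.81e-07), when knockout cells held 44.8% of the control level. Ranked from the lowest, Lars stood at 140 of 18194 genes on day 6.

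**Figure D2:**
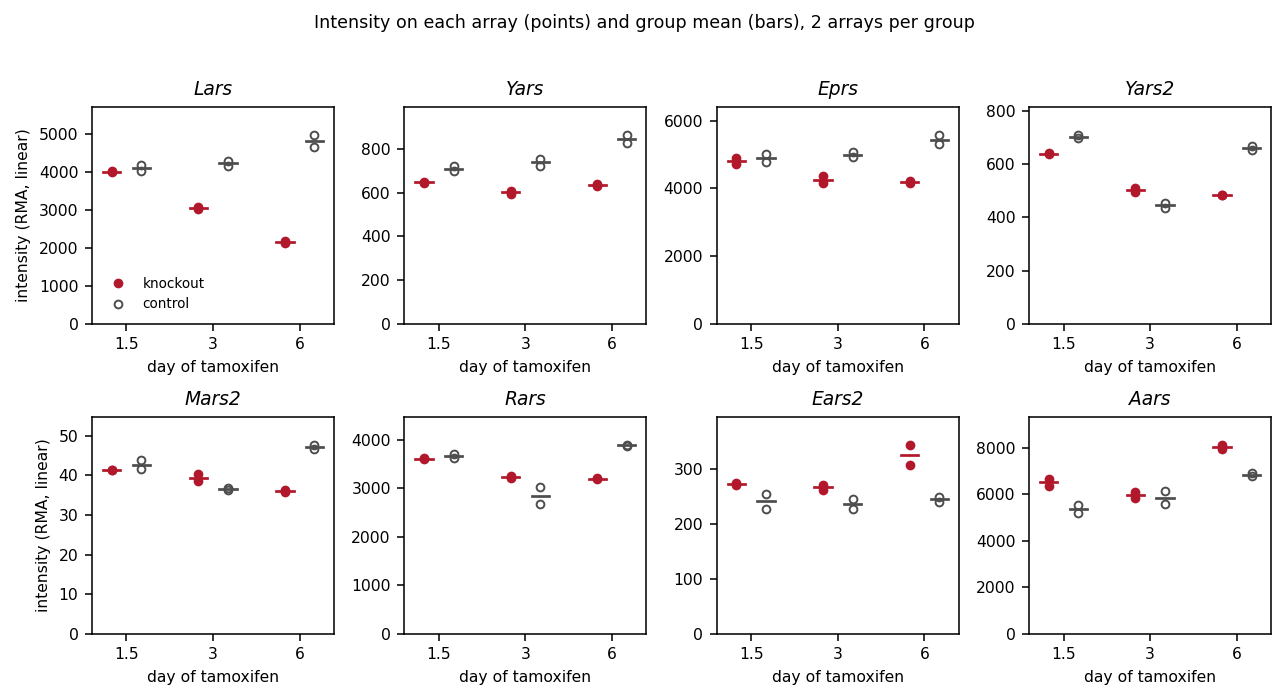
Intensity of 8 synthetases on each of the 12 arrays, by day, knockout points (filled) left of control points (open), bars for group means, each panel on its own linear axis. Lars in knockout cells is at 2178 and 2141 on day 6, below both control arrays at 4976 and 4676.

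Other cytosolic enzymes moved less. Yars, the tyrosine enzyme, had 645.4 and 650.1 in knockout cells on day 1.5 and 721.6 and 701.3 in control cells; 609.7 and 593.9 in knockout cells on day 3 and 723.9 and 755.4 in control cells; and 640.3 and 632.1 in knockout cells on day 6 and 829.6 and 864.6 in control cells. Its log2 fold change was -0.14 on day 1.5, which did not pass, -0.30 on day 3 (adjusted p = 0.00261) and -0.41 on day 6 (adjusted p = 0.000247). All knockout arrays lay below the control arrays of their day.

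Eprs, a fused enzyme for glutamate and proline, had 4731 and 4895 in knockout cells on day 1.5 and 4778 and 5019 in control cells, with overlap between the groups. On day 3 it had 4358 and 4153 in knockout cells and 4915 and 5064 in control cells. On day 6 it had 4210 and 4170 in knockout cells and 5301 and 5570 in control cells, a log2 fold change of -0.37 (limma adjusted p = 0.00072). Both later days had the knockout arrays below the control arrays, and 2 further probe sets of Eprs were lower on day 6, at -0.54 and -0.56.

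Sars, the serine enzyme, had 2961 and 3047 in knockout cells on day 1.5 and 2847 and 2861 in control cells. It had 2801 and 2877 in knockout cells on day 3, against 3367 and 3187 in control cells, and 2991 and 2970 in knockout cells on day 6, against 3515 and 3680 in control cells. The knockout arrays were above the control arrays on day 1.5 (0.07, not called) and below them on day 3 (-0.21, limma adjusted p = 0.0187) and day 6 (-0.27, limma adjusted p = 0.00332). Nars, the asparagine enzyme, had 6713 and 7074 in knockout cells on day 1.5 and 6876 and 6864 in control cells. It had 6407 and 6607 in knockout cells on day 3 and 7598 and 7727 in control cells, and 7134 and 7170 in knockout cells on day 6 and 7986 and 8144 in control cells. Its groups overlapped on day 1.5 and were apart on days 3 and 6, with log2 fold changes of -0.24 and -0.17.

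Rars, the arginine enzyme, had 3609 and 3616 in knockout cells on day 1.5 and 3629 and 3703 in control cells. It had 3263 and 3213 in knockout cells on day 3 and 3021 and 2668 in control cells, and 3189 and 3215 in knockout cells on day 6 and 3883 and 3889 in control cells. On day 3 the knockout arrays were the higher ones, without passing the test (0.19, limma adjusted p = 0.0536), and on day 6 they were the lower ones (-0.28, limma adjusted p = 0.00694). Hars, the histidine enzyme, had 3725 and 3724 in knockout cells on day 1.5 and 3525 and 3679 in control cells. Its day 3 values were 3056 and 3019 in knockout cells and 2804 and 2904 in control cells, and its day 6 values were 3245 and 3316 in knockout cells and 3737 and 3653 in control cells. It was lower on day 6 alone, at -0.17 (limma adjusted p = 0.0239).

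Farsa and Farsb encode the subunits of the cytosolic phenylalanine enzyme. Farsa had 1293 and 1346 in knockout cells on day 1.5 and 1295 and 1212 in control cells, 1201 and 1180 in knockout cells on day 3 and 1091 and 1016 in control cells, and 1184 and 1168 in knockout cells on day 6 and 1371 and 1351 in control cells. Farsb had 4475 and 4589 in knockout cells on day 6 and 5725 and 5554 in control cells. Both subunits were lower on day 6, Farsa at -0.21 (limma adjusted p = 0.0194) and Farsb at -0.32 (limma adjusted p = 0.00412). A further probe set of Farsb, with a mean intensity of 191, went the other way at 0.30, while 2 others were lower at -0.42 and -0.36. Further probe sets of Farsa were at 0.52, 0.30 and -0.11, without passing. They were dimmer, with mean intensities of 68.7, 78.8 and 131, against 1226 for the probe set used. With the mean of all its probe sets Farsa was at 0.12, and its call was lost when any 1 array of day 6 was left out.

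Qars, the glutamine enzyme, had 3798 and 3875 in knockout cells on day 1.5 and 3573 and 3665 in control cells. On day 3 it had 2815 and 2758 in knockout cells and 3037 and 2994 in control cells, and on day 6 3088 and 3104 in knockout cells and 3658 and 3472 in control cells. Only the day 6 difference passed (-0.20, limma adjusted p = 0.0113). Further probe sets of Qars were at -0.27 (mean intensity 2471), which passed, and at -0.07 (760) and 0.26 (14.9), which did not. The probe set used had a mean of 3320. The Qars call was lost with the mean of all probe sets, and without control replicate 1 or either knockout array of day 6. Vars, the valine enzyme, had 1504 and 1677 in knockout cells on day 1.5 and 1613 and 1418 in control cells. It had 1603 and 1556 in knockout cells on day 3 and 1610 and 1460 in control cells, and 1309 and 1359 in knockout cells on day 6 and 1648 and 1709 in control cells. The groups overlapped until day 6, when Vars was lower at -0.33 (limma adjusted p = 0.0126). Kars, the lysine enzyme, had 3670 and 3881 in knockout cells on day 1.5 and 3273 and 3238 in control cells, 3549 and 3494 in knockout cells on day 3 and 3473 and 3501 in control cells, and 3242 and 3264 in knockout cells on day 6 and 3468 and 3774 in control cells. It was higher on day 1.5 (0.21, limma adjusted p = 0.0446), and its day 6 value of -0.15 did not pass.

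Tars, the threonine enzyme, had 3939 and 3899 in knockout cells on day 6, against 4495 and 4587 in control cells, and was lower at -0.21 (limma adjusted p = 0.00788). Gars, the glycine enzyme, was lower by a similar amount, at -0.17. Cars, Iars, Mars1 and Wars, the cysteine, isoleucine, methionine and tryptophan enzymes, did not pass on day 6, with log2 fold changes between -0.14 and -0.05. Of the 7 measured enzymes of the multi-synthetase complex, 4 were lower on day 6 (Eprs, Lars, Qars and Rars) and Iars, Kars and Mars1 did not pass. That share, 57.1%, compares with 68.4% of the cytosolic enzymes, 51.4% of the whole family and 15.3% of all genes.

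Aars, the alanine enzyme, went against the other cytosolic members. It had 6360 and 6677 in knockout cells on day 1.5 and 5528 and 5208 in control cells, 5845 and 6127 in knockout cells on day 3 and 6147 and 5574 in control cells, and 7942 and 8120 in knockout cells on day 6 and 6921 and 6782 in control cells. It was higher on day 1.5 (0.28, limma adjusted p = 0.0255) and day 6 (0.23, limma adjusted p = 0.0215), and its groups overlapped on day 3. The probe set used has a shared-probe suffix. A further probe set of Aars, without that suffix, was at 0.29 on day 1.5 and 0.16 on day 6. Adjusted over all probe sets, neither passed (limma adjusted p = 0.0593 and 0.164). With it in place of the other and adjustment over genes, the day 1.5 call was kept and the day 6 call was lost.

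Among mitochondrial enzymes the largest fall on day 6 was that of Yars2, for tyrosine. It had 643.1 and 636.8 in knockout cells on day 1.5 and 709.3 and 698.8 in control cells, 508.6 and 495.3 in knockout cells on day 3 and 454.2 and 436.0 in control cells, and 485.2 and 482.7 in knockout cells on day 6 and 667.3 and 651.9 in control cells. The knockout arrays were thus above the controls on day 3 (0.17, adjusted p = 0.028 with limma) and below them on day 6 (-0.45, adjusted p = 0.000115 with limma). A further probe set of Yars2 was at -0.05 on day 3 and -0.46 on day 6. Mars2, for methionine, is dim: it had 41.4 and 41.2 in knockout cells on day 1.5 and 41.5 and 43.9 in control cells, 40.2 and 38.5 in knockout cells on day 3 and 36.3 and 36.9 in control cells, and 36.4 and 35.7 in knockout cells on day 6 and 46.6 and 47.6 in control cells. It was lower on day 6 at -0.39 (limma adjusted p = 0.000421), at intensities near the array medians of 42.4 to 44.7. A further probe set of Mars2, with a mean intensity of 10.1, went the other way at 0.29, without passing. With the mean of all its probe sets Mars2 was at -0.05 and the call was lost.

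Iars2, for isoleucine, had 470.7 and 437.2 in knockout cells on day 1.5 and 417.4 and 416.5 in control cells, 363.2 and 400.2 in knockout cells on day 3 and 381.7 and 416.7 in control cells, and 361.5 and 376.0 in knockout cells on day 6 and 448.2 and 432.6 in control cells. It was lower on day 6 at -0.26 (limma adjusted p = 0.0195). Rars2, for arginine, had 1407 and 1440 in knockout cells on day 1.5 and 1501 and 1509 in control cells, 1289 and 1283 in knockout cells on day 3 and 1202 and 1182 in control cells, and 1301 and 1289 in knockout cells on day 6 and 1400 and 1487 in control cells. It was lower on day 6 at -0.16 (limma adjusted p = 0.0374), and Lars2, for leucine, was lower at -0.19, close to the threshold.

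Ears2, the mitochondrial glutamate enzyme, was the other member to rise on day 6. It had 273.8 and 270.9 in knockout cells on day 1.5 and 253.3 and 227.4 in control cells, 270.8 and 260.7 in knockout cells on day 3 and 244.1 and 227.5 in control cells, and 342.3 and 306.2 in knockout cells on day 6 and 240.2 and 248.6 in control cells. All knockout arrays lay above the control arrays of their day, and the day 6 log2 fold change of 0.41 passed (limma adjusted p = 0.00269).

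Cars2, the mitochondrial cysteine enzyme, had 378.2 and 369.0 in knockout cells on day 1.5 and 363.7 and 329.8 in control cells, 345.4 and 323.6 in knockout cells on day 3 and 272.7 and 261.5 in control cells, and 369.8 and 351.2 in knockout cells on day 6 and 381.8 and 367.8 in control cells. It was higher on day 3 alone (0.32, limma adjusted p = 0.00654). Nars2, for asparagine, had 468.5 and 456.5 in knockout cells on day 1.5 and 407.3 and 423.4 in control cells, 361.1 and 388.4 in knockout cells on day 3 and 407.6 and 464.1 in control cells, and 461.7 and 454.5 in knockout cells on day 6 and 417.7 and 403.8 in control cells. None of its 3 differences passed, at 0.16, -0.22 and 0.16. A further probe set of Nars2, with a mean intensity of 13.9, was at 0.17, -0.08 and -0.34, of which only the last passed. Vars2, for valine, had 239.9 and 218.6 in knockout cells on day 1.5 and 186.8 and 182.5 in control cells, 186.4 and 202.8 in knockout cells on day 3 and 179.7 and 161.7 in control cells, and 172.2 and 159.7 in knockout cells on day 6 and 169.1 and 184.7 in control cells. It was higher on day 1.5 (0.31, limma adjusted p = 0.0441). A further probe set of Vars2 was at 0.09 on day 1.5, without passing. That probe set passed on day 3 at 0.35 and on day 6 at -0.34. With the mean of all probe sets of Vars2 the day 1.5 call was lost.

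For several amino acids only one of the cytosolic and mitochondrial enzymes passed on day 6, although the difference between the partners was not tested. Hars2 had 316.7 and 307.4 in knockout cells and 278.4 and 304.4 in control cells, where Hars was lower. Sars2 had 280.0 and 291.8 in knockout cells and 242.6 and 296.3 in control cells, and Tars2 had 735.1 and 732.0 in knockout cells and 773.8 and 764.2 in control cells. The groups of Sars2 overlapped, those of Hars2 and Tars2 did not, and none passed. Aars2 had 261.9 and 287.7 in knockout cells and 285.3 and 292.8 in control cells, and Fars2 had 267.4 and 259.9 in knockout cells and 250.9 and 279.4 in control cells, again with overlap. For isoleucine and methionine the mitochondrial enzyme passed and the cytosolic one did not: Iars had 5149 and 5178 in knockout cells and 5674 and 5389 in control cells, and Mars1 had 4479 and 4516 in knockout cells and 4619 and 4725 in control cells. Pars2 and Wars2, for proline and tryptophan, did not pass, at 0.06 and 0.31.

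On day 3, 7 synthetases were lower and 3 higher in knockout cells, against 10.0% lower and 13.4% higher of all genes (23.4% in either direction). Without the dimmest genes the background was 19.5% lower and 25.3% higher. The 7 lower were all cytosolic (7 of 19): Lars, Yars, Nars, Eprs, Sars, Iars and Gars, from -0.47 to -0.18. The 3 higher were all mitochondrial (3 of 16), Cars2, Hars2 and Yars2, from 0.17 to 0.32. Hars2 was close to the threshold (limma adjusted p = 0.0447). A further, dimmer probe set of Hars2 was at 0.002, and its call was lost with the mean of all probe sets. Further probe sets of Cars2 were at 0.57, which passed, and 0.22, which did not. The median was 0.03 over the family and 0.03 over all genes. The 7 became 3 without knockout replicate 1 of that day (6.51% of all genes), 5 without knockout replicate 2 (7.71%) and 6 without control replicate 1 (7.38%) or control replicate 2 (8.52%). The 3 higher became 0 without knockout replicate 1 (8.51%), 1 without knockout replicate 2 (9.74%), 5 without control replicate 1 (11.2%) and 1 without control replicate 2 (10.2%).

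On day 1.5, Aars, Kars and Vars2 were higher and Tars lower, 3 and 1 of 35, against 5.93% and 3.97% of all genes (9.90% in either direction), shares near those of the family. Without the dimmest genes the background was 14.2% higher and 8.59% lower. None of these 4 calls was made when any 1 array of day 1.5 was left out. Of all genes, 2.54% were then higher and 1.59% lower without knockout replicate 1, and 2.08% and 1.85% without knockout replicate 2. Without control replicate 1 these shares were 2.83% and 1.76%, and without control replicate 2 they were 2.29% and 2.06%.

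The knockout effect itself changed between days for a number of members, by the test of the difference between days. Day 6 against day 1.5 gave 12 members with a more negative effect and 0 with a more positive one, against 10.0% and 9.35% of all genes; Lars moved most, by -1.13. Day 6 against day 3 gave 8 more negative and 1, Nars2, more positive, against 8.78% and 7.71%. Day 3 against day 1.5 gave 4 more negative (11.4%) and 1, Yars2, more positive (2.86%), against 7.34% and 7.63%. In either direction 15.0% of all genes were called there, so the family was near the share of all genes. These 3 comparisons share arrays with each other.

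Each effect also holds what the controls did with time. In control cells, 13 members were lower and 3 higher on day 3 than on day 1.5 (18.2% and 9.12% of all genes), and 18 were higher and 0 lower on day 6 than on day 3 (19.5% and 8.01%). Between days 6 and 1.5, 3 were higher and 0 lower (1.09% and 0.473%, or 1.57% in either direction). Yars2 fell by 0.66 and Hars2 by 0.57 in control cells between days 1.5 and 3. In knockout cells, 10 members were lower and 0 higher on day 3 than on day 1.5 (13.7% and 6.98%), 11 were higher and 2 lower on day 6 than on day 3 (20.5% and 13.0%, or 33.5%), and 5 were higher and 12 lower on day 6 than on day 1.5 (15.9% and 14.3%, or 30.2%). Lars and Vars were the 2 that fell in knockout cells between days 3 and 6, Lars by 0.50 and Vars by 0.24.

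**Figure D3:**
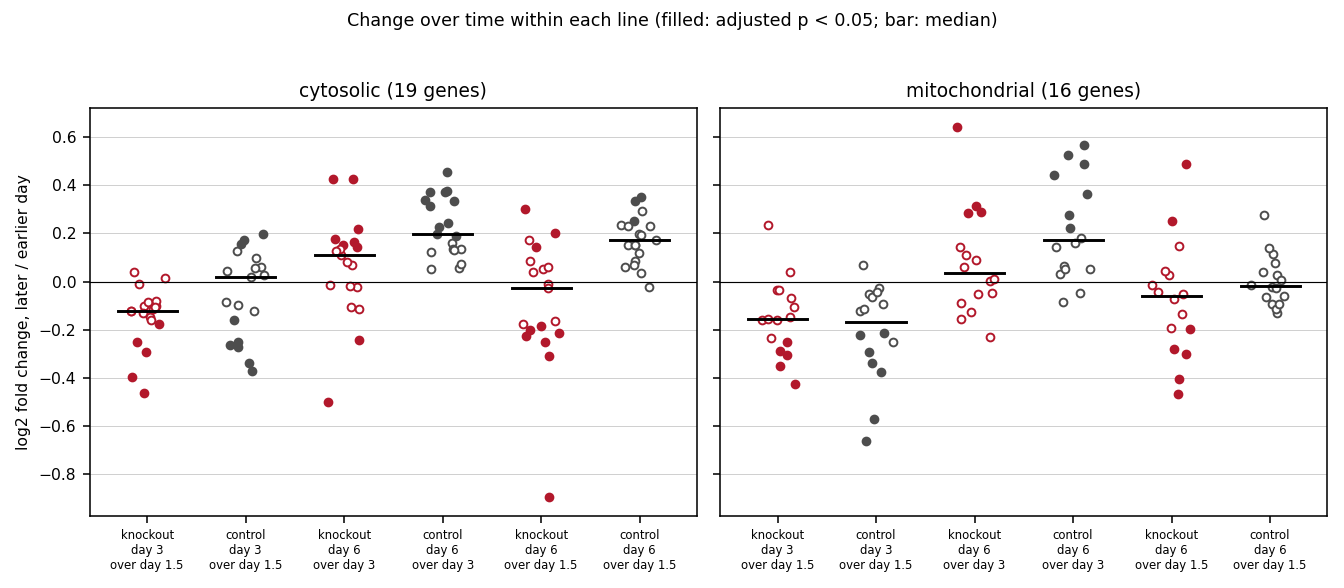
Log2 change between days within knockout cells and within control cells for each synthetase, cytosolic and mitochondrial enzymes in separate panels, filled points for those that passed and bars for medians. In control cells 18 members are higher on day 6 than on day 3 and none is lower, and in knockout cells 11 are higher and 2 lower.

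Because the day 3 controls stood below the other controls for many members, knockout cells of day 3 were also set against the mean of the control cells of days 1.5 and 6. By that measure 21 members were lower and 0 higher, against 15.5% and 10.0% of all genes (25.5% in either direction), with a median of -0.19. Of the cytosolic enzymes 15 of 19 were lower and of the mitochondrial ones 6 of 16. Yars2, higher on day 3 against its own controls, was at -0.44 here, and Hars2 at -0.28. This measure mixes day with genotype, so the 2 cannot be told apart in it. Knockout cells too were lower on day 3 than on day 1.5, in 10 members, and higher in 0. Among cytosolic members of control cells, 6 were lower and 3 higher on day 3 than on day 1.5, with a median change of 0.02. The controls were changed after their values were seen, so the 21 is not separate support for a day 3 effect.

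**Figure D4:**
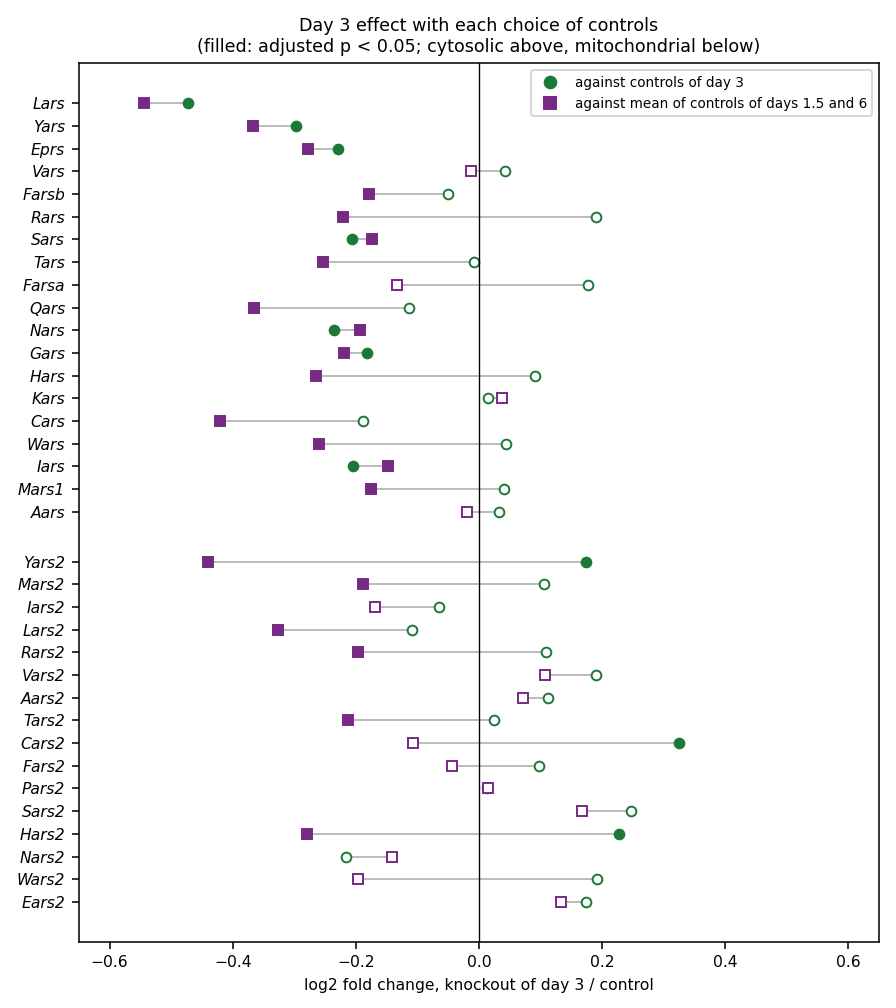
Log2 fold change of each synthetase in knockout cells of day 3 against the control cells of day 3 (circles) and against the mean of the control cells of days 1.5 and 6 (squares), filled where it passed. Against the day 3 controls 7 members are lower, and against the others 21.

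Partners of the synthetases are scaffold, editing, tRNA-processing and amidating proteins and the GCN2 pathway. Of 20 measured partners, 10 were lower and 1, Prorsd1, higher on day 6, 5 were lower and 3 higher on day 3, and none passed on day 1.5. As shares, 50.0% were lower and 5.0% higher on day 6, against 15.3% and 17.2% of all genes, and on day 3 the 5 lower and 3 higher (15.0%) compare with 10.0% and 13.4% of all genes, so the share higher was near that of all genes. The largest fall was in Dtd1, which removes D-amino acids from mischarged tRNA. It had 748.7 and 780.2 in knockout cells on day 6 and 1332 and 1364 in control cells, a log2 fold change of -0.82. Gatb, a subunit of the mitochondrial enzyme that amidates glutamate on glutamine tRNA, fell by 0.53. Aarsd1, an editing protein for alanine tRNA, fell by 0.50, and Rpp30, whose promoter is shown above, fell by 0.49. The complex scaffold Aimp2 and the amidase subunit Qrsl1 did not pass on day 6, at 0.07 and 0.12.

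Of 29 measured genes of the amino acid stress response outside the family, 16 were lower and 3 higher on day 6, 20 were lower and 2 higher on day 3, and 6 were lower and 0 higher on day 1.5. The shares were 55.2% lower and 10.3% higher on day 6, against 15.3% and 17.2% of all genes, 69.0% and 6.9% on day 3, against 10.0% and 13.4%, and 20.7% and 0% on day 1.5, against 3.97% and 5.93%. Pck2, mitochondrial PEP carboxykinase, had 555.0 and 570.7 in knockout cells on day 6 and 1611 and 1671 in control cells, at -1.54. Slc1a5, a glutamine transporter, was at -1.37, Shmt2 at -1.26 and the secreted glycoprotein Stc2 at -0.88. The 3 higher on day 6 were Ddit3, the stress transcription factor CHOP, at 0.87, and the amino acid transporters Slc38a2 at 0.33 and Slc7a3 at 0.26, named after their values were seen. Ddit3 had 666.3 and 587.3 in knockout cells and 343.0 and 341.3 in control cells. Atf4 itself had 6214 and 5970 in knockout cells on day 6 and 6474 and 6409 in control cells, at -0.08, which did not pass, and was lower on day 3 at -0.27. Slc7a5, a leucine transporter, did not pass on day 6 at 0.09. Of the synthetases with the response element in their promoter window, Aars was higher on day 6, Gars, Tars and Yars were lower, and Iars did not pass, at -0.10. Of all measured cytosolic members, 13 of 19 were lower and 1 was higher that day. The part of the element in these changes was not tested.

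**Figure D5:**
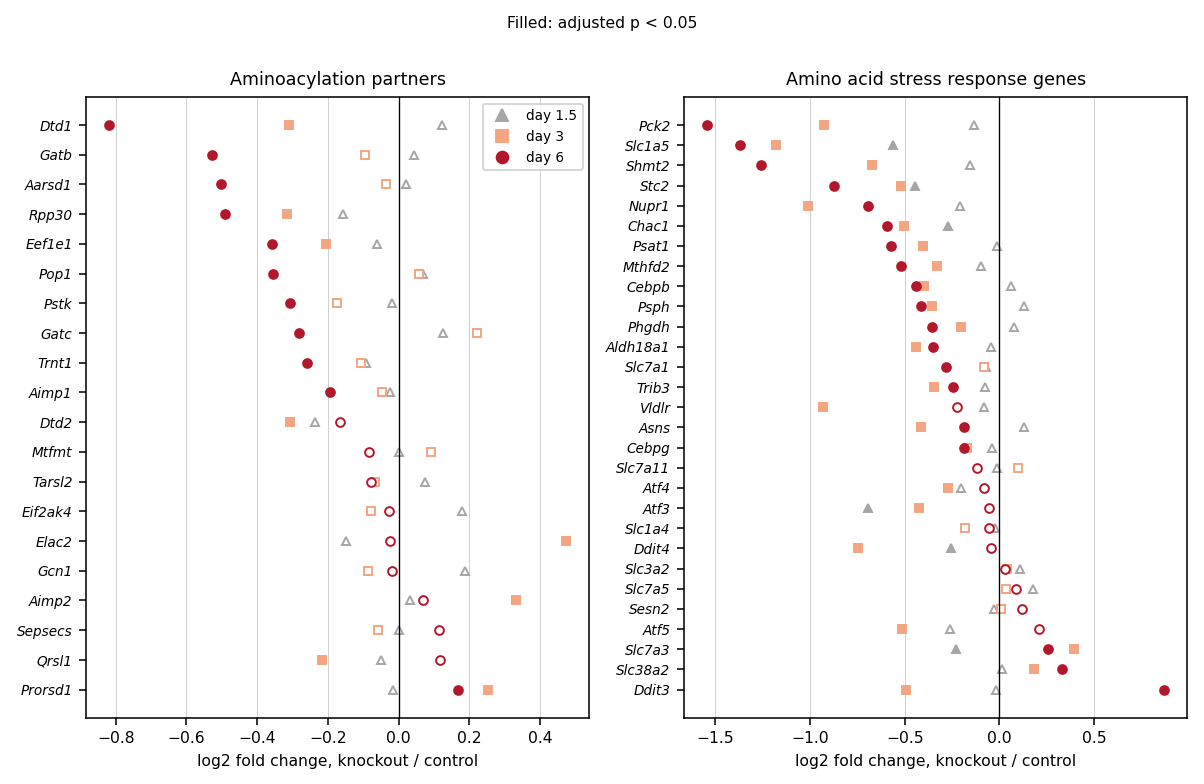
Log2 fold change, knockout over control, on days 1.5 (triangles), 3 (squares) and 6 (circles) for the partners of the synthetases and for genes of the amino acid stress response, filled where it passed. On day 6 Pck2 at -1.54 and Dtd1 at -0.82 are the lowest of their lists.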

How the data were processed

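RNA of 12 samples was measured on Affymetrix arrays. The authors deposited an intensity for each probe set, computed with RMA per the submitters' processing notes, whose version is not given in the sources used here. RMA puts arrays on a common distribution, so a change shared by all genes would not be seen. The planned test assumed log2 values; the deposited intensities ran from 5.51 to 34993 on a linear scale, so log2 was taken first. Of 45101 probe sets, 34958 had 1 symbol in the platform annotation, 932 several and 9211 none; a symbol with or without a final 1 was taken as the same gene. The probe set with the highest mean intensity over the 12 arrays stood for a gene, giving 18194 genes. Of the members, 12 had 1 probe set and 23 had several.

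Differences were tested with limma 3.58.1 in R 4.3.3 (lmFit and eBayes, a mean per group, all 12 arrays), with Benjamini-Hochberg adjustment over all genes and a threshold of 0.05. Further probe sets of a gene were tested in a fit of all 34958 probe sets with 1 symbol, with adjustment over those. With 2 arrays a group, the number of arrays limits the precision. Data were simulated for the day 6 comparison over 18194 genes, with 67 genes changed at each fold size and all others unchanged. Recovery was 25.4% at a 1.25-fold change, 62.7% at 1.5-fold and 94% at 2-fold, and 3.17% of the calls were false. In the real comparison 32.5% of genes were called, a far larger share. The adjustment depends on that share, so these rates do not carry over directly. Values of every array are given for members called with a log2 change of at least 0.5, called against the main direction on day 6, or with an effect that changed between days, and day 6 values for pairs of 1 amino acid with 1 called; from other lists, the 4 largest called on day 6 and the 2 brightest not called. The members and lists were chosen with earlier results of these data known. Alternatives covered the probe set rule, a filter on the dimmest 40% of genes, normalization, array weights, eBayes settings, the arrays fitted, a replicate block and leaving out each array. Promoter windows came from RefSeq.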

Additional observations from a re-analysis of the deposited data

Results flagged for a closer look

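A number of synthetases had a knockout effect that differed between days by the limma test of the difference, adjusted over all genes. Day 3 against day 1.5, the change in log2 fold change was -0.44 for Lars, -0.24 for Nars, -0.28 for Sars, -0.37 for Nars2 and 0.31 for Yars2. Day 6 against day 3, it was -0.39 for Farsa, -0.26 for Hars, -0.69 for Lars, -0.47 for Rars, -0.38 for Cars2, -0.49 for Mars2, 0.37 for Nars2, -0.27 for Rars2 and -0.62 for Yars2. Day 6 against day 1.5, it was -0.35 for Eprs, -0.29 for Farsa, -0.37 for Kars, -1.13 for Lars, -0.29 for Qars, -0.34 for Sars, -0.40 for Vars, -0.28 for Yars, -0.38 for Iars2, -0.34 for Mars2, -0.40 for Vars2 and -0.31 for Yars2. Of all genes, 15.0%, 16.5% and 19.4% were called in these 3 comparisons, in the same order. The count for day 3 against day 1.5 was near that share. Control cells of day 3 enter 2 of the 3 comparisons.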

How the results depend on the processing

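Of the 18 synthetases lower on day 6, 6 stayed called under every alternative (Eprs, Lars, Rars, Sars, Yars and Yars2), as did Ears2 of the 2 higher, Lars and Yars of the 7 lower on day 3, and no call of day 1.5. The replicate numbers did not pair the samples (same-day correlations of -0.004, -0.057 and 0.028), and a replicate block gave 18 lower on day 6, 0 lower and 1 higher on day 1.5, and 1 changed in control cells between days 6 and 1.5. On day 1.5 the 1 lower became 3 with median centring, 2 without the dimmest genes and 0 with only the arrays of that day or without probe sets of shared-probe suffix, and the 3 higher became 1, 0 and 1 with centring, only the arrays of that day and without that suffix. On day 3 the 7 lower became 2 with only the arrays of that day and 21 against the controls of days 1.5 and 6, and the 3 higher became 5 with centring, robust trended eBayes or without the dimmest genes, 1 with only the arrays of that day and 0 against the other controls. On day 6 the 18 lower became 12 with only the arrays of that day. Effects changed between days 3 and 1.5 in 13 members with robust eBayes and 11 without the dimmest genes, against 5, and between days 6 and 3 in 14 with robust eBayes, against 9. Control cells differed between days 6 and 1.5 in 1 member with centring, 12 with robust eBayes and 10 without the dimmest genes, against 3, and knockout cells between days 3 and 1.5 in 5 with centring or quantile normalization and 19 with robust eBayes, against 10. Leaving out 1 array gave 0 to 0 lower and 0 to 0 higher on day 1.5, 3 to 6 and 0 to 5 on day 3, and 9 to 12 and 1 to 1 on day 6. It gave 1 to 4, 5 to 8 and 6 to 9 members with a changed effect (days 3 and 1.5, 6 and 3, 6 and 1.5), 8 to 12, 13 to 17 and 0 to 0 changed in control cells, and 5 to 7, 4 to 7 and 5 to 8 in knockout cells. Against the controls of days 1.5 and 6, 15 members turned direction on day 3. Of these, 5 passed neither test (Aars, Fars2, Farsa, Vars and Wars2), and 10 passed at least 1, with values against those controls for Hars (-0.26), Mars1 (-0.18), Rars (-0.22), Wars (-0.26), Cars2 (-0.11), Hars2 (-0.28), Mars2 (-0.19), Rars2 (-0.20), Tars2 (-0.21) and Yars2 (-0.44). Direction also turned without probe sets of shared-probe suffix for Farsb (0.64 on day 3, 0.30 on day 6) and Qars (0.26 on day 6). The probe sets standing in there were dim, with mean intensities of 191 for Farsb and 14.9 for Qars. Those used in the main fit had 5136 and 3320. With the mean of all probe sets, direction turned for Farsa (0.12 on day 6). The cause was not tested.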
